A study of Homo sapiens with 6 samples.

Results

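The regions described here were open in all 3 peak lists of the series. The assay was ATAC-seq: the Tn5 transposase inserts sequencing adapters where DNA is accessible, and sites with many fragments are called as peaks. Members were chosen by overlap: a peak of the WT list was taken when it shared at least 1 bp with a dKO peak and also with a BAF53B peak. This held for 5808 of the 7880 WT peaks, or 73.7% (48.3% with a reciprocal overlap of 50%, 54.0% with lists of equal length and 86.5% at a −log10 q of at least 10), and for 5808 of the 50267 peaks in the 3 lists together. Since the rule used peak calls, every pileup, fold and ratio given for these regions comes from the signal that chose them and is a description without a test. Their position, base composition, motifs and neighbouring genes were not used by the rule.

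All cells were human neural progenitor cells (NPCs) made from H1, an established line of embryonic stem cells. WT NPCs were unmodified and dKO NPCs carried a knockout of both UTX (KDM6A) and JMJD3 (KDM6B), 2 demethylases of the repressive histone mark H3K27me3. The third group was dKO NPCs transduced with a lentivirus for BAF53B, a neuronal subunit of the BAF remodelling complex encoded by ACTL6B, so the comparison of BAF53B with dKO shares the knockout and that with WT does not. The WT and dKO samples were early-passage NPCs by their names and the study's account, and the passage of the BAF53B samples is not given in the sources used here. The knockout was made in H1 stem cells with Cas9 and a homology donor and was genotyped in clones, the number of clones behind the dKO line is not given, and effects of a clone and of the genotype cannot be told apart. BAF53B came from a virus, and no group with a control virus is among these samples. Each group had 2 replicates, which the authors pooled into 1 list, so no value here has a replicate error. Intervals of shares and of single ratios are 95% intervals of counting error only. Those of medians are 95% intervals from the spread over regions, which share their libraries and are not replicates.

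Regions that stay open across cell states are mostly promoters. At an active promoter the nucleosome just before the transcription start site (TSS) is displaced, and many such promoters lie in CpG islands and carry short sites for broadly expressed activators such as NRF1, the ETS factors, NF-Y at the CCAAT box and the Sp/KLF factors at the GC box. Enhancers lie farther away, tend to be poorer in CpG and often carry sites for factors such as AP-1, the dimer of FOS and JUN proteins. ATAC-seq on a bulk population counts fragments, and a site open in fewer cells cannot be told apart from one that is less open in each cell.

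Examples of the sequences at these regions are shown because the motif content set them apart from the other WT peaks. For each of 7 promoter motifs, the common region near a gene start with the highest mean scaled pileup is given that held the motif within 50 bp of the WT summit, lay in unique sequence and overlapped no annotated exon over the 101 bp printed. Sequences are hg38, plus strand, 5′ to 3′, centred on the WT summit, with the motif match on either strand in capitals.
FXR2 (NRF1) chr17:7614990-7615090: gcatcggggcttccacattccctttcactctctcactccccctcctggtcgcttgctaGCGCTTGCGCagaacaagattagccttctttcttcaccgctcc
COX14 (ETS) chr12:50111932-50112032: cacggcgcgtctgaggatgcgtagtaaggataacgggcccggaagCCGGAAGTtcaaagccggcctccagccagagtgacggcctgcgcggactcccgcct
HNRNPL (CCAAT box) chr19:38850380-38850480: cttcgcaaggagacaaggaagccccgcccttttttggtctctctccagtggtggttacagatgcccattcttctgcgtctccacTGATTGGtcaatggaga
TOM1L2 (GC box) chr17:17972527-17972627: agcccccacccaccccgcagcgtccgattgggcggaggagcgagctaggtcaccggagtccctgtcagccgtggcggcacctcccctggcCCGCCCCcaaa
ACTR1A (YY1) chr10:102502149-102502249: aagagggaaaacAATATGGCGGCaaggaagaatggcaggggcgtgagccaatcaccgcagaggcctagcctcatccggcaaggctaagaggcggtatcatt
AKR1D1 (CRE) chr7:138002201-138002301: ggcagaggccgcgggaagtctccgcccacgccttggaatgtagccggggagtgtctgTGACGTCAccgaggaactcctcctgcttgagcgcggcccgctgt
PA2G4 (ZNF143) chr12:56104401-56104501: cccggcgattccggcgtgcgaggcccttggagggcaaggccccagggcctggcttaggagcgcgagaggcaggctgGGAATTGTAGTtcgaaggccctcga
The motifs were GCGCNTGCGC for NRF1, CCGGAAGT for ETS, CCAAT followed by C or G and then A or G for the CCAAT box, GGGGCGG for the GC box, AANATGGCGGC for YY1, TGACGTCA for CRE and ACTACANNTCC for ZNF143. FXR2, a paralogue of the fragile X protein, had its WT summit 143 bp upstream of the TSS and a pileup of 62 fragments in WT, 176 in dKO and 78 in BAF53B. COX14, an assembly factor of cytochrome c oxidase, had 79, 186 and 91 fragments in the same order with a summit 100 bp upstream. PA2G4, a growth regulator that binds RNA, had 60, 132 and 84 fragments with a summit 86 bp upstream. In all 3 the dKO list was the highest and the WT list the lowest.

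The overlap was close to complete for most members. The median overlap was 505 bp with the dKO partner and 502 bp with the BAF53B partner, at a median WT width of 542 bp (quartiles 408 and 711 bp). Partners were wider, with a median of 835.5 bp in dKO and 796 bp with BAF53B, and 57.9% of the members lay wholly inside the dKO partner and 54.5% inside the BAF53B partner. All but 2 of the 5808 members had at least 1 bp shared by their strongest partners in both lists. Some WT peaks fell into the same wider peak, so the members had 5740 distinct strongest partners in dKO and 5751 in BAF53B. The members covered 3.38 Mb, or 81.5% of the bases covered by the WT list.

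At the edge of the rule, 4 members shared under 50 bp with their best partner in 1 of the lists, and the smallest overlaps with the strongest partner were 18 bp in dKO and 6 bp with BAF53B. Just outside it, 10 WT peaks had a partner in 1 list and a peak within 100 bp in the other, the nearest at 12 bp. The members of lowest significance had a −log10 q of 5.00 in WT, 5.01 in dKO and 5.00 in BAF53B, beside the limit of 5 in all lists. The WT peak of highest −log10 q outside the rule, at chr1:143213052-143213408 in repeated sequence, had a −log10 q of 25.1, a pileup of 52 fragments and a dKO partner only.

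Within the overlap that the rule requires, the summits of the lists lay close together in most members. The median distance between the WT and dKO summits was 33 bp (quartiles 14 and 68 bp), that between WT and BAF53B summits was 35 bp (14 and 72 bp) and that between dKO and BAF53B summits was 31 bp (13 and 64 bp). Summits of WT and dKO lay within 50 bp of each other in 3805 members (65.5%). At regions within 3 kb of a gene start in unique sequence the WT to dKO median was also 33 bp, and at the 499 distal regions defined further on it was 41 bp (95% interval of the median, 35 to 48 bp).

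Most of the common regions were promoters. The WT summit lay within 3 kb of the start of a protein-coding gene in 4273 members, a share of 73.6% (Wilson interval 72.4 to 74.7%), and within 1 kb in 69.9%. In the 2072 other WT peaks the share within 3 kb was 17.6%, which is 56.0 percentage points lower (Newcombe interval 54.0 to 57.9). These other WT peaks were also weaker, with a median pileup of 29 fragments against 39 in the members. Their median −log10 q was 5.90 against 9.86 and their median width 333 bp against 542 bp. The part of WT peak strength in this and the later comparisons with them was not tested. The 447 WT peaks with a dKO partner only came closest, with 49.4%, 24.1 points lower (19.4 to 28.9). The 459 WT peaks with a BAF53B partner only had 12.6% and the 1166 with no partner had 7.29%. The dKO and BAF53B peaks outside the common set, which lack an overlap with at least 1 other list, had 31.0% and 31.8%. Counting the starts of all annotated genes, 4698 members (80.9%) lay within 3 kb. Of the rest, 586 (10.1%) were in introns, 341 (5.87%) between genes and 183 (3.15%) in exons.

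Within promoters the summits gathered just before the gene start. Over the 4261 members within 3 kb of a protein-coding gene start and in unique sequence, the median WT summit was 47 bp upstream of the TSS (quartiles 108 bp upstream and 43 bp downstream), and 66.8% of the summits were upstream. The medians were 47 bp upstream in dKO and 49 bp upstream with BAF53B. A window from 250 bp upstream to the TSS held 60.1% of the WT summits, 58.7% of the dKO summits and 59.3% of the BAF53B summits. The medians of the 3 lists lay within 2 bp of each other.

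**Figure D1:**
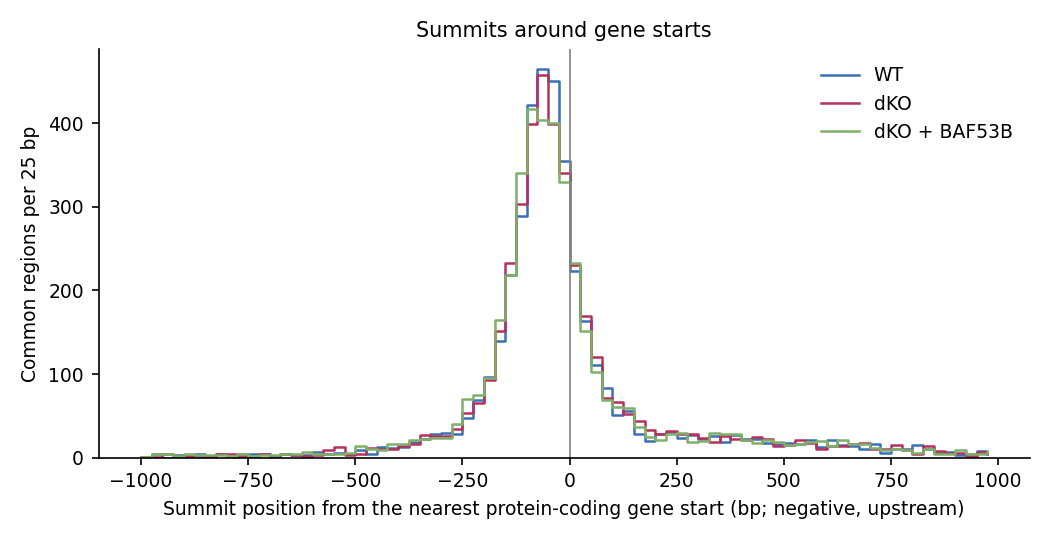
Number of common regions per 25 bp of summit position from the nearest protein-coding gene start, for the WT, dKO and BAF53B summits of 4261 promoter regions, shown to 1000 bp on each side. The medians are 47 bp, 47 bp and 49 bp upstream; the WT and dKO curves are highest in the 25 bp bin that starts at −75 bp, and the BAF53B curve in the bin before it.

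The sequence under the summits was GC-rich. The median GC content of the 201 bp around the WT summit was 64.2% (quartiles 58.7 and 69.7%), against 48.8% in the other WT peaks (43.8 and 55.7%). The ratio of observed to expected CpG was 0.83 against 0.25. A GC content of at least 55% together with a CpG ratio of at least 0.65, limits often used for CpG islands, was met by 4164 members (71.7%) and by 282 of the other WT peaks (13.6%), a difference of 58.1 points (56.1 to 59.9). WT peaks with a dKO partner only met it in 47.2% and those with a BAF53B partner only in 6.75%. The dKO and BAF53B peaks outside the common set lay closer to the members than the other WT peaks did. Their median GC content was 59.2% and 54.7%, and 32.2% and 31.2% of them met both limits.

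Motifs of promoter activators were frequent. At least 1 of the 7 promoter motifs was within 100 bp of the WT summit in 4046 members (69.7%, 68.5 to 70.8%), and 2 or more kinds were in 1581 (27.2%). The other WT peaks had at least 1 in 17.6% and 2 or more in 2.56%. The dKO and BAF53B peaks outside the common set had at least 1 in 29.9% and 30.0%. In all 20046 protein-coding promoters, over the same length of 201 bp ending at the TSS, at least 1 was found in 48.9%. Matches of different motifs seldom shared bases, with the CCAAT box and the GC box overlapping in 9 members and the ETS motif and the GC box in 6.

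The GC box was the most frequent, in 2321 of the 5808 members, 6.71% of the other WT peaks and 32.5% of all promoters. The CCAAT box followed, in 32.2%, 9.22% and 16.5%. The NRF1 motif was in 11.4%, 1.35% and 5.42%, and the ETS motif in 7.09%, 1.35% and 3.52%. The ZNF143 motif, bound by an activator of snRNA and many housekeeping promoters, was in 4.48%, 0.386% and 2.06%. CRE, the site of CREB and ATF proteins, was in 3.12%, 0.820% and 1.95%, and the YY1 motif in 2.03%, 0.483% and 0.474%. The windows of the members are centred on the summit and those of the promoters end at the TSS. In the promoter window, genes with a common region held the YY1 motif in 1.01%, the CCAAT box in 27.1%, the GC box in 41.5% and the NRF1 motif in 11.1%. For each of the 7 the interval of the difference between members and other WT peaks lay above 0, with a difference of 1.55 points for YY1 as the smallest and of 33.3 points (31.5 to 34.9) for the GC box as the largest.

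The members lie near gene starts more often, so the shares were also taken near gene starts alone. Among regions within 3 kb of an annotated gene start (4698 members and 528 other WT peaks), the GC box was in 44.2% of the members and 18.2% of the other WT peaks, the CCAAT box in 34.5% and 14.0%, the NRF1 motif in 12.9% and 4.73%, the ETS motif in 8.39% and 4.73% and the ZNF143 motif in 5.11% and 1.14%. The intervals of the members and of the other peaks did not overlap for these 5. They overlapped for CRE, in 3.34% (2.87 to 3.90%) and 2.46% (1.44 to 4.17%), and for YY1, in 2.36% (1.97 to 2.84%) and 1.70% (0.899 to 3.21%), so no difference near gene starts was detectable for these 2 motifs.

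The other 4 motifs were less frequent in the members as a whole than in the other WT peaks. The AP-1 motif, TGACTCA or TGAGTCA, was in 2.98% of the members and in 12.7% of the other WT peaks, 9.76 points fewer (8.32 to 11.3), and in 28.1% of the WT peaks with a BAF53B partner only. The SOX motif, CCATTGT or CCTTTGT, which SOX proteins of progenitors recognise, was in 4.89% and 9.41%. CTCF, the insulator protein, had a motif in 1.26% and 3.14%, and the RFX motif of ciliary gene regulators was in 1.65% and 2.56%. All protein-coding promoters held them in 2.86% (AP-1), 4.78% (SOX), 0.454% (CTCF) and 0.713% (RFX). The dKO peaks outside the common set held them in 3.82%, 7.60%, 3.88% and 1.06% in the same order. The BAF53B peaks outside it held them in 10.5%, 8.53%, 3.47% and 1.54%. Against these peaks RFX was not less frequent in the members, and AP-1 was close to its share in the dKO peaks. Near gene starts the members had a lower share of all 4 than the other WT peaks, with separate intervals. The shares were 1.70% and 5.49% for AP-1, 4.07% and 7.58% for SOX, 0.724% and 2.46% for CTCF and 1.28% and 3.98% for RFX. Away from gene starts (1110 members and 1544 other WT peaks) only AP-1 kept a clear difference, with 8.38% (6.89 to 10.2%) and 15.2% (13.5 to 17.1%). SOX was in 8.38% and 10.0%, CTCF in 3.51% and 3.37% and RFX in 3.24% and 2.07%, with overlapping intervals, and for CTCF and RFX the members had the higher share there. A match is a run of letters in the reference and not a measured binding site.

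**Figure D2:**
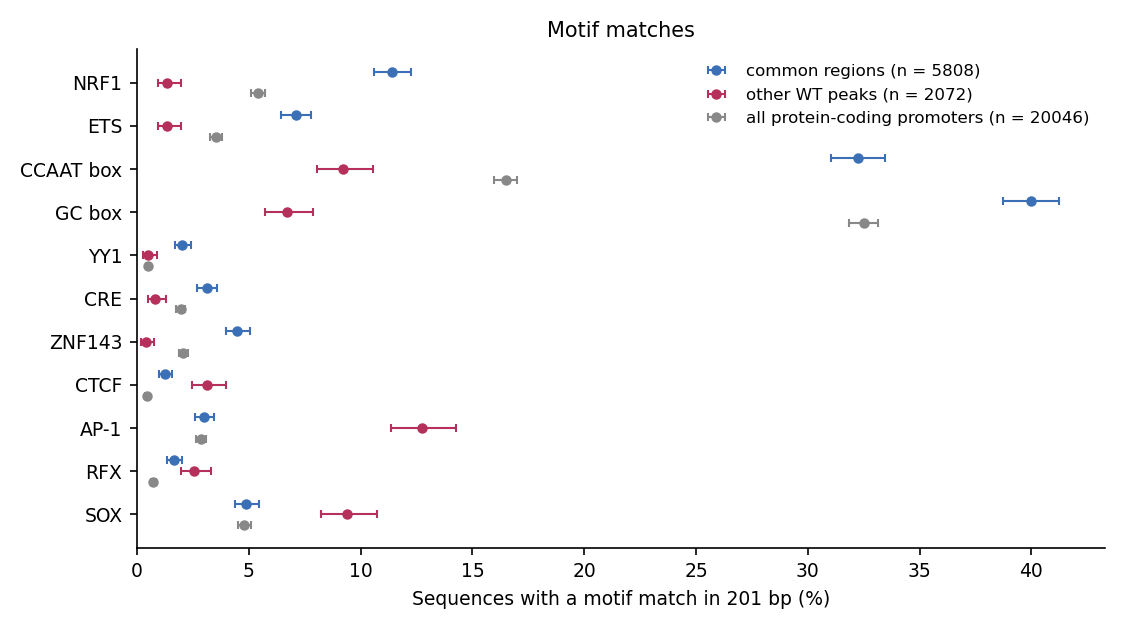
Share of sequences with a match to each of 11 motifs in 201 bp (%, with Wilson 95% intervals), in the 5808 common regions, the 2072 other WT peaks and all 20046 protein-coding promoters. The 7 promoter motifs from NRF1 to ZNF143 are more frequent in the common regions than in the other WT peaks, and CTCF, AP-1, RFX and SOX are less frequent, which away from gene starts holds with separate intervals for AP-1 alone.

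The place relative to the gene start differed between the motifs. Matches were taken only within 100 bp of the WT summit, whose median was 47 bp upstream, so these medians partly repeat the place of the summits. The match nearest the WT summit had its median 62 bp upstream of the TSS for the CCAAT box (1467 regions), 62 bp upstream for ZNF143 (227 regions), 48 bp upstream for the GC box (1926 regions) and 33.5 bp upstream for NRF1 (569 regions). CRE lay 26 bp upstream (138 regions, interval of the median 43.5 to 7.5 bp upstream). The ETS motif lay closer, 10.5 bp upstream (373 regions). The YY1 motif lay past the start, 28 bp downstream (108 regions, interval of the median 23 to 37 bp). The CCAAT box was the nearest of them to the WT summit itself, at a median of 29 bp, and YY1 the farthest of the 7, at 61 bp.

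The height of the members differed between the lists. The pileup at the summit was solved from the deposited fold and −log10 p. It counts the fragments, or reads extended by the peak caller, that cover the summit, and its unit is called fragments throughout. If both ends of 1 fragment were counted, the counting intervals are too narrow. The pileup was divided by the genome background of the list, which was 6.33 fragments in WT, 6.81 in dKO and 6.78 in BAF53B. The median pileup was 39 fragments in WT (quartiles 34 and 48), 72 in dKO (54 and 96) and 52 in BAF53B (42 and 65). After scaling, the median log2 ratio was 0.73 for dKO over WT (interval of the median 0.72 to 0.75, quartiles 0.40 and 1.01), which is 1.66-fold. It was 0.25 for BAF53B over WT (0.24 to 0.26) and −0.46 for BAF53B over dKO (−0.47 to −0.45). The local background at the same regions differed in the same order, with medians of 9.03, 11.6 and 10.4 fragments, and the share of fragments in peaks in each library is not known from these lists, so its part in the ratios was not tested.

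In 3825 members (65.9%, 64.6 to 67.1%) the order of the scaled pileups was WT, then BAF53B, then dKO. In 995 (17.1%) BAF53B was lowest and dKO highest, in 556 (9.57%) WT was lowest and BAF53B highest, and the 3 orders with dKO below WT held for 3.75%, 2.27% and 1.41%. With the deposited fold in place of the pileup, the first order held for 53.9%. Spearman correlations of the pileup over the 5808 members were 0.65 between WT and dKO, 0.66 between WT and BAF53B and 0.70 between dKO and BAF53B, as a description over regions that share their libraries.

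A counting interval was set on the ratio of each member. For dKO over WT it lay above 0 in 3582 members (61.7%) and below 0 in 26 (0.448%). Over all 6255 WT peaks with a dKO partner the same counts came to 59.0% and 0.416%. For BAF53B over WT it lay above 0 in 888 members (15.3%) and below in 9 (0.155%), beside 14.3% and 0.144% of the 6267 WT peaks with a BAF53B partner. For BAF53B over dKO it lay above 0 in 74 (1.27%) and below in 2515 (43.3%), beside 1.04% and 31.6% of the 11275 dKO peaks with a BAF53B partner. The contrasts share lists and the rule used them, so nothing is read from these shares about the members.

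The ratio differed with the position of the region. In the 4650 members within 3 kb of an annotated gene start and in unique sequence, the median log2 ratio of dKO over WT was 0.77 (0.76 to 0.79), and 95.8% of them were above 0. In 499 regions farther from gene starts but within 3 kb of the start of another annotated transcript it was 0.72 (0.66 to 0.77). In the 499 remaining distal regions in unique sequence it was 0.33 (0.27 to 0.39), with 76.0% above 0. In the 160 members in repeated or mitochondrial sequence it was 0.01 (−0.11 to 0.07), with 52.5% above 0. BAF53B over WT went from 0.27 at gene starts over 0.25 and 0.18 to 0.05 in the same order. BAF53B over dKO went from −0.49 over −0.47 and −0.17 to −0.00.

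**Figure D3:**
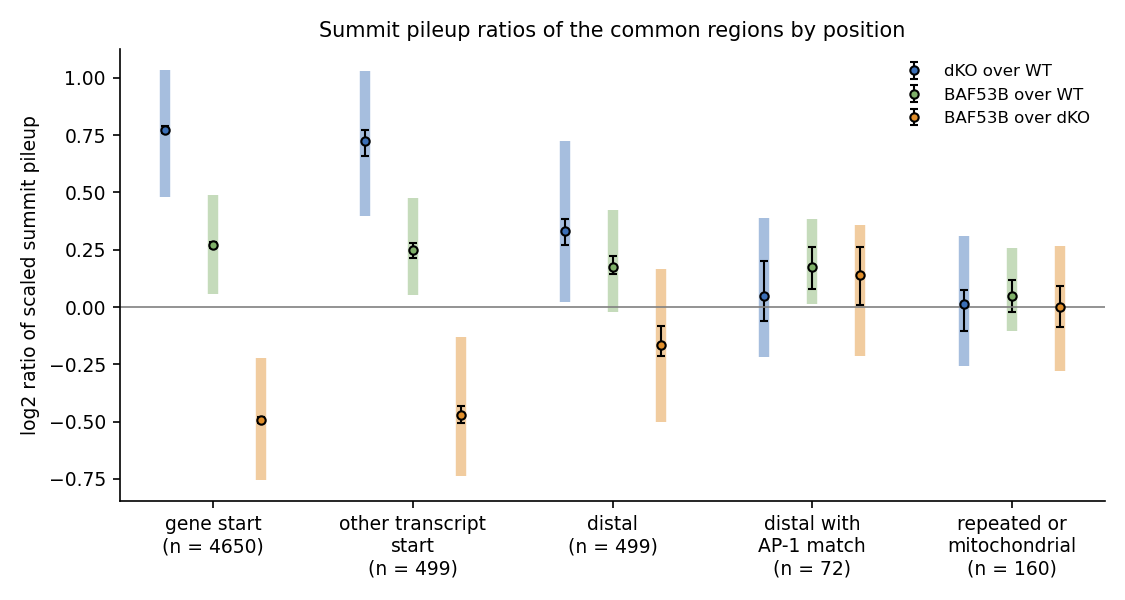
Log2 ratio of scaled summit pileup for dKO over WT, BAF53B over WT and BAF53B over dKO in the common regions, by position; points are medians with 95% intervals and bars span the quartiles. The dKO over WT median is 0.77 at gene starts, 0.33 at distal regions, 0.05 at distal regions with an AP-1 match and 0.01 in repeated or mitochondrial sequence.

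The ratio rose with GC content at distal regions, while at promoters it was lower only under 50%. Among promoter members the dKO over WT median was 0.57 in the 107 regions with a GC content under 50%, 0.79 from 50 to 60%, 0.78 from 60 to 70% and 0.78 at 70% or more. Among distal members it was 0.12 in 192 regions under 50%, 0.34 in 170 regions from 50 to 60%, 0.67 in 117 regions from 60 to 70% and 0.74 in 20 regions at 70% or more. A part of GC content in the ratios was not tested beyond these values. By motif, promoter members with a ZNF143 match had 0.88 (0.82 to 0.94) and those with a CCAAT box 0.85 (0.82 to 0.87), while those with an ETS match had 0.67 (0.62 to 0.73) and those with CRE 0.65 (0.56 to 0.72).

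**Figure D4:**
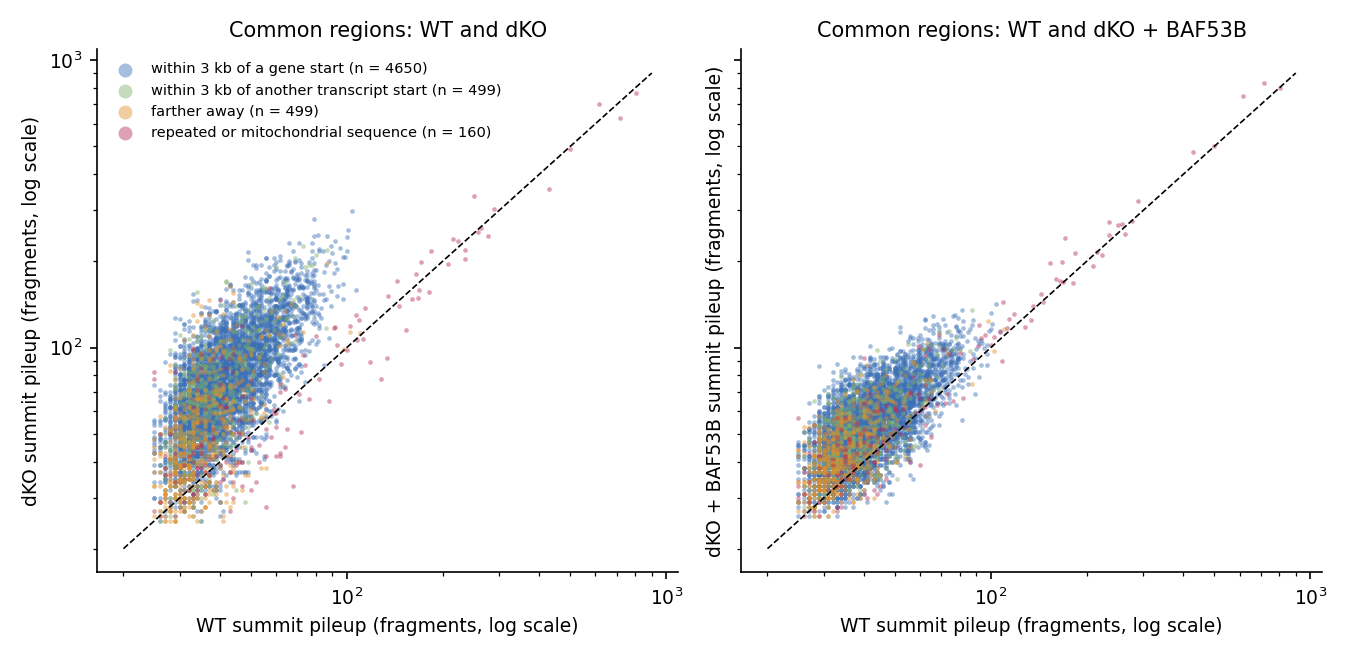
Summit pileup of the 5808 common regions in WT (x axis) against dKO and against dKO with BAF53B (y axes), in fragments on log scales, coloured by position, with the line of equal counts. Promoter regions lie mostly above the line for dKO (medians 40 and 75 fragments), and the regions of highest pileup, all in repeated or mitochondrial sequence, lie along it.

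The promoters of highest WT pileup were far above the median. SARNP, a protein of the mRNA export machinery, had 107 fragments in WT, 158 in dKO and 114 in BAF53B (chr12:55817614-55818239, summit 114 bp upstream). HNRNPL, a splicing regulator, had 104, 299 and 142 fragments (chr19:38849892-38850880), with the summit 1917 bp into the gene. ASXL1, a Polycomb-associated cofactor of histone deubiquitination, had 101, 256 and 121 fragments (chr20:32357544-32358554). In each of them the dKO list was highest, with log2 ratios to WT of 0.46 for SARNP, 1.42 for HNRNPL and 1.24 for ASXL1.

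SP2, a transcription factor of the Sp family, had 100, 243 and 132 fragments, and MAP3K11, a kinase of JNK signalling, had 100, 216 and 116. AP2A1, a subunit of the clathrin adaptor AP-2, had 99, 207 and 114 fragments, RAB3A, a GTPase of synaptic vesicles, had 97, 166 and 102, and SPAG7 had 97, 207 and 95. Their dKO over WT ratios were between 0.67 and 1.18 on the log2 scale, and their BAF53B over WT ratios were between −0.13 for SPAG7 and 0.30 for SP2.

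Among regions at or above the median mean height, the largest ratios of dKO over WT included those near ATF2, CLIC4, GSDMA, CNNM2 and ID1. ATF2, a CRE-binding factor, had 33 fragments in WT, 154 in dKO and 88 in BAF53B, a log2 ratio of 2.12 (1.57 to 2.71), at chr2:175167366-175167714, 848 bp into the gene. This WT peak and a stronger one at the start of ATF2, with 64 fragments, fall into the same wide dKO and BAF53B peaks, and against the stronger one the ratio was 1.16. ID1, an inhibitor of basic helix-loop-helix factors, had 49, 201 and 75 fragments and a ratio of 1.93 (1.47 to 2.41), and lay −960 bp from the TSS. These 5 were lower in BAF53B than in dKO, with log2 ratios from −0.80 to −1.41.

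CLIC4, a chloride intracellular channel protein, had 33 fragments in WT and 145 in dKO, and GSDMA, a gasdermin, had 29 and 127. CNNM2, linked to magnesium transport, had 34 and 146, and it too shares its dKO peak with a stronger WT peak, of 61 fragments, for which the ratio was 1.15. Of all members 152 shared a strongest partner with another member, and their median dKO over WT ratio was 0.86, against 0.72 in the 5656 with partners of their own. At the other end, the 6 lowest ratios among regions of at least that height were just under 0, while promoter members of any height went down to −0.73. KIFBP, a kinesin-binding protein, had 71 fragments in WT, 65 in dKO and 63 in BAF53B, a log2 ratio of −0.23 (−0.74 to 0.27). ATXN3, a deubiquitinase, had 60, 55 and 72 fragments, FAM98A had 60, 56 and 56, and BUD31, a splicing factor, had 61, 61 and 66. PARP11, an ADP-ribosyltransferase, and FAM174A had ratios of −0.08 each. The counting interval held 0 for all 6, and no promoter member had an interval of dKO over WT wholly below 0. The rule needs a called dKO peak, and no dKO partner had under 25 fragments. Lower dKO pileups could not enter, so nothing is read from this absence.

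Among regions near protein-coding gene starts at or above the median mean height, the lowest ratio of BAF53B over dKO was at PSMC4, an ATPase of the proteasome, with 62 fragments in WT, 149 in dKO and 47 in BAF53B (chr19:39970697-39971336), a log2 ratio of BAF53B over dKO of −1.66 (−2.16 to −1.18). ZNF687, a zinc finger protein, had 51, 193 and 62 fragments (−1.63), in a region whose dKO peak also covers a second WT peak of 52 fragments with a BAF53B pileup of 118 (−0.70), CIART, a repressor of the circadian clock, had 57, 156 and 51 (−1.61) and DNAJC25, a cochaperone, had 42, 116 and 38 (−1.60). At PSMC4, CIART and DNAJC25 the BAF53B pileup was lower than that of WT also after scaling, with ratios to WT of −0.50, −0.26 and −0.24. Among the same regions the highest ratios of BAF53B over dKO were at TRIM68, a ubiquitin ligase, with 46, 49 and 85 fragments (0.80, 0.28 to 1.34), KPNA4, a nuclear import receptor, with 47, 54 and 78 (0.54), CYB5D2 with 45, 55 and 79 (0.53) and C16orf87 with 37, 51 and 73 (0.53). Without the limits on height and position, the ratio ranged from −1.86 to 1.12 over all members.

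The genes behind the regions were counted next. A common region within 3 kb of the start was found for 5262 of 20046 protein-coding genes, or 26.2%, which is the background for the gene lists. These were 93.6% of the 5622 genes with a WT summit there, 122 of them had more than 1 common region, and 999 regions served 2 or more gene starts. The median log2 ratio of dKO over WT over the 5262 genes, each by its strongest common region, was 0.78, with BAF53B over WT at 0.27 and BAF53B over dKO at −0.50. By chromosome the share of genes ran up to 36.9% on chromosome 19 (544 of 1476). It was 5.59% on chromosome X (48 of 859) and 1.59% on chromosome Y (1 of 63). The study writes the UTX knockout as −/Y, so X and Y are single in these cells, and the part of copy number was not tested.

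Lists of basic cell functions had shares between 39.5% and 77.8%, and 8 of 9 had an interval above the background. Of the replication licensing factors, which load and fire the replicative helicase, 14 of 18 had a common region (77.8%, 54.8 to 91.0%). The share was 35 of 52 for translation initiation factors (67.3%), 22 of 34 for aminoacyl-tRNA synthetases (64.7%) and 22 of 37 for proteins of the spliceosomal snRNPs (59.5%). It was 7 of 12 for RNA polymerase II subunits (58.3%), 47 of 88 for cytosolic ribosomal proteins (53.4%), 34 of 77 for mitochondrial ribosomal proteins (44.2%), 21 of 48 for the proteasome (43.8%) and 15 of 38 for respiratory complex I (39.5%). Complex I was the list whose interval held 26.2%, as it ran from 25.6 to 55.3%.

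The lists differ in length, and a peak summit in the window was found for 28.0% of all protein-coding genes in WT, 56.0% in dKO and 44.6% in BAF53B. In the dKO list 76 of the 88 cytosolic ribosomal protein genes and in the BAF53B list 71 had a peak summit in the window, against 48 in WT, and for mitochondrial ribosomal proteins the counts were 70, 61 and 35 of 77. Their median log2 ratios of dKO over WT lay between 0.61 for aminoacyl-tRNA synthetases and 0.92 for the proteasome, beside 0.78 for all genes. For BAF53B over dKO they lay between −0.24 for complex I and −0.70 for RNA polymerase II.

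Single members spread more widely than the lists. MCM3, a subunit of the replicative helicase, had 78 fragments in WT, 123 in dKO and 87 in BAF53B, ORC6 of the origin recognition complex had 50, 82 and 78, and CDC6, a loader of the helicase, had 43, 96 and 73. RPL18 had 43, 165 and 88 fragments, a log2 ratio of dKO over WT of 1.83, while RPLP0 had 64, 111 and 72, a ratio of 0.69. PSMD3 of the proteasome had 57, 145 and 53 fragments and PSMD8 had 69, 141 and 75. NDUFA11 of complex I had 56, 204 and 88 fragments, a ratio of 1.76. The lists were fixed by symbol, and no member of the 9 had a counting interval of dKO over WT wholly below 0. Since the rule needs a dKO peak, low dKO pileups could not enter, and nothing is read from this.

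Within these lists the initiation factor EIF4A1, an RNA helicase, had 75, 171 and 89 fragments, EIF5A had 63, 166 and 80 and EIF1 had 69, 123 and 90. SNRPD2 had 66, 162 and 100 fragments, SNRPA had 75, 141 and 90, and SF3B2 had 48, 142 and 71. Among the synthetases, CARS2 had 97, 148 and 87 fragments, AARS1 had 71, 118 and 92, and YARS1 had 53, 146 and 87. MRPL18 had 65, 131 and 78 fragments, MRPL54 had 51, 96 and 80 and MRPL2 had 51, 87 and 80. NDUFS8 had 54, 129 and 76 and NDUFV1 had 43, 97 and 80. The dKO pileup was the highest at each of these genes. By the deposited fold over the local background it was not so at all of them. WT was the highest at CARS2 (6.33 in WT, 5.50 in dKO and 4.15 in BAF53B). BAF53B was the highest at MRPL54 (4.78, 5.29 and 5.98), MRPL2 (4.70, 5.47 and 6.41) and NDUFV1 (4.61, 6.48 and 6.79).

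All 7 RNA polymerase II subunits with a common region can be given. POLR2A, the largest subunit, had 41 fragments in WT, 91 in dKO and 51 in BAF53B, POLR2E had 36, 85 and 52, POLR2H had 35, 101 and 59 and POLR2I had 88, 164 and 95. These 4 had counting intervals of dKO over WT above 0. POLR2B had 37, 53 and 56 fragments, POLR2F had 48, 53 and 40 and POLR2G had 37, 47 and 54, and for these 3 the interval held 0.

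**Figure D5:**
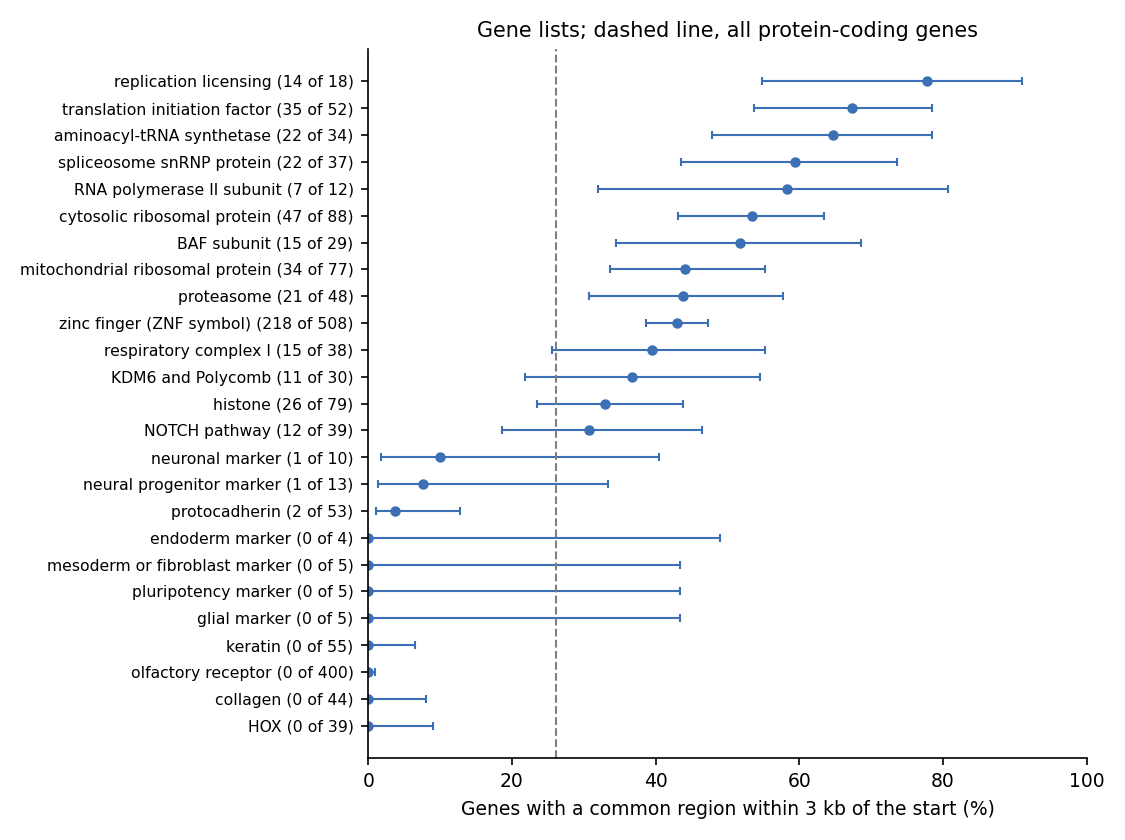
Share of the genes of each list with a common region within 3 kb of the start (%, with Wilson 95% intervals), with the number of genes on the left and the share over all 20046 protein-coding genes, 26.2%, as a dashed line. Lists of basic cell functions lie to the right of the line, and HOX, collagen, olfactory receptor and keratin genes lie at 0.

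Zinc finger genes were also frequent, and histone genes were near the background. Of 508 genes with a ZNF symbol, most of which encode DNA-binding repressors, 218 had a common region (42.9%, 38.7 to 47.2%), with a median log2 ratio of dKO over WT of 0.81. Among them ZNF143, whose own motif was counted above, had 62, 126 and 126 fragments, so its BAF53B and dKO pileups were the same number, and ZNF526 had 60, 132 and 111. Of 79 histone genes 26 had one (32.9%, 23.6 to 43.9%), an interval that holds the background. H3-3B, which encodes the replacement histone H3.3, had 63, 82 and 79 fragments, and H2AC11 and H2BC11 share 1 region with 44, 111 and 63 fragments.

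BAF subunits had a common region at 15 of 29 genes (51.7%, 34.4 to 68.6%). ACTL6A, the progenitor counterpart of BAF53B, had 68 fragments in WT, 98 in dKO and 79 in BAF53B. DPF3, a neuronal subunit, had 54, 106 and 74 fragments, and SMARCC1, a core subunit, had 61, 91 and 66. ACTL6B, which encodes BAF53B itself and was named outside the naming rule, had 37, 34 and 30 fragments at its own start, a log2 ratio of dKO over WT of −0.23 whose interval held 0. Since the virus carries BAF53B as a transgene, this region of the chromosome does not report its expression.

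KDM6 and Polycomb genes had a common region at 11 of 30 (36.7%, 21.9 to 54.5%), which spans the background. KDM6B had 53, 118 and 60 fragments at chr17:7834937-7835942, 1409 bp into the gene, a log2 ratio of dKO over WT of 1.05 and of BAF53B over dKO of −0.97. The deposited fold over the local background was more even there, at 3.44 in WT, 3.66 in dKO and 2.94 in BAF53B. RBBP4, a histone-binding subunit of Polycomb and other complexes, had 48, 98 and 85 fragments, and PHC2, a subunit of Polycomb complex PRC1, had 39, 86 and 58. An open promoter does not test whether a gene downstream of it is deleted. NOTCH pathway genes had one at 12 of 39 (30.8%, 18.6 to 46.4%), among them NUMB, an inhibitor of NOTCH, with 69, 141 and 114 fragments, PSENEN, a subunit of gamma-secretase, with 75, 170 and 78, and MAML1, a coactivator, with 66, 122 and 91. The PSENEN summit lay 2882 bp downstream of the start, near the edge of the window, which held 2 common regions.

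Marker genes of cell identity were few, and their shares were not separable from the background of 26.2%. Of 13 neural progenitor markers only HES1, a NOTCH target that keeps progenitors undifferentiated, had a common region (7.69%, 1.37 to 33.3%), with 37 fragments in WT, 113 in dKO and 67 in BAF53B, a log2 ratio of dKO over WT of 1.51 (0.96 to 2.08). In the dKO list 9 of the 13 and in the BAF53B list 7 had a peak summit within 3 kb of the start, against 2 in WT, beside 56.0%, 44.6% and 28.0% of all protein-coding genes in the 3 lists, so in WT the label of neural progenitors has few marker promoters behind it at this threshold. Of 10 neuronal markers only MAP2, a dendritic microtubule protein, had one (interval 1.79 to 40.4%), with 33, 69 and 42 fragments. None of 5 glial, 5 pluripotency, 5 mesoderm or fibroblast and 4 endoderm markers had a common region, and lists this short cannot limit the share.

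Families used in few cell types were absent. A common region was found for 0 of 39 HOX genes, for which 3 counts set an upper limit of 7.69%, 0 of 44 collagen genes (limit 6.82%), 0 of 55 keratin genes (5.45%) and 0 of 400 olfactory receptor genes (0.75%). In the WT list 0 HOX, 1 collagen, 1 keratin and 2 olfactory receptor genes had a peak summit in the window. Members are WT peaks, so few of these genes could have a common region, whatever the other lists held. In the dKO list 14 of the 44 collagen, 3 of the 39 HOX, 4 of the 55 keratin and 4 of the 400 olfactory receptor genes had one. The share over all protein-coding genes in that list was 56.0%. Of 53 clustered protocadherin genes 2 had a common region, PCDHAC1 with 42, 52 and 45 fragments and PCDHB2 with 27, 37 and 26.

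The regions of highest pileup were of another kind. All 10 of the members with the highest WT pileup, at 250 fragments or more, and all of the first 25 lay in sequence that occurs more than once in the genome or matches the mitochondrial genome. A region was put in this class when at least 2 of 5 stretches of 32 bp around its summit occurred elsewhere in hg38, or when it held a match of at least 100 bp and 80% identity to mitochondrial DNA. The class held 160 members (2.75%) and 5.79% of the other WT peaks, and reads placed in it may come from any of the copies.

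The first 6 regions more than 3 kb from a gene start by mean height were all of this class and near centromeres. The region at chr1:125179961-125180323 had 802 fragments in WT, 766 in dKO and 798 in BAF53B. That at chr17:26603762-26604358 had 714, 628 and 831 fragments, and that at chr16:46387804-46388070 had 498, 491 and 502. The next had 430, 356 and 480 (chr6:61322895-61323204), 277, 245 and 275 (chr17:23016168-23016425) and 257, 252 and 268 (chr17:25920074-25920347). In all 6 the scaled dKO pileup was below that of WT, with log2 ratios from −0.13 to −0.38.

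Copies of mitochondrial sequence spread from the highest pileups down to the median. MTATP6P1, a nuclear pseudogene of a mitochondrial gene on chromosome 1, had 617 fragments in WT, 703 in dKO and 750 in BAF53B, and MTND2P28 beside it had 289, 302 and 323. Over the 6 members with a mitochondrial match the median log2 ratio of dKO over WT was 0.10, with a range of −0.14 to 0.32, and the counting interval lay above 0 for MTND1P15 (250, 336 and 266 fragments). The lowest were MTND4P35 with 50, 67 and 61 fragments and MTCO1P2 with 40, 39 and 31. Over the whole class of 160 the summits of WT and dKO were 6 bp apart in the median, the counting interval of dKO over WT lay above 0 in 28 and below 0 in 21, and the median GC content was 42.3%. Without this class the median ratio of dKO over WT over the other 5648 members was 0.74, that of BAF53B over WT was 0.26 and that of BAF53B over dKO was −0.47.

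Distal regions in unique sequence were lower and more even between the lists. The 499 regions more than 3 kb from the start of any annotated transcript had a median pileup of 34 fragments in WT, 46 in dKO and 42 in BAF53B, against 40, 75 and 53 at gene starts. The order WT, BAF53B, dKO held for 42.3% of them (38.0 to 46.7%) and for 3256 of the 4650 members at gene starts (68.7 to 71.3%). Counting intervals of dKO over WT were above 0 in 153 and below 0 in 4. The median GC content was 52.7% and the median CpG ratio was 0.36.

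Distal regions with an AP-1 match had nearly equal pileups in WT and dKO. In these 72 regions the median pileup was 33 fragments in WT, 36.5 in dKO and 42.5 in BAF53B. The median log2 ratio of dKO over WT was 0.05 (−0.06 to 0.20), against 0.37 (0.32 to 0.44) in the 427 distal regions without a match. That of BAF53B over dKO was 0.14 (0.01 to 0.26), with 45 of the 72 above 0, against −0.21 (−0.27 to −0.15), and that of BAF53B over WT was 0.17 against 0.18. The rule leaves out regions without a dKO peak, and the lowest dKO pileup of a partner was 25 fragments. Of the WT peaks left out, those with a BAF53B partner only held the AP-1 motif in 28.1%, and those with a dKO partner only in 4.25%. The ratios therefore hold only for regions high enough in dKO to be called. The 2 classes differ in base composition too, with a median GC content of 49.8% at AP-1 matches, and the part of GC content in the difference was not tested. Distal members with a SOX match (62 regions) had 0.29 for dKO over WT and −0.01 for BAF53B over dKO.

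The sequences of 3 distal regions with an AP-1 match and a low dKO over WT ratio are shown because they run against the main direction of the members. They were chosen after their values were seen and cover 201 bp around the WT summit (hg38, plus strand), with AP-1 matches on either strand in capitals.
ELMO1 intron (AP-1) chr7:37031988-37032188: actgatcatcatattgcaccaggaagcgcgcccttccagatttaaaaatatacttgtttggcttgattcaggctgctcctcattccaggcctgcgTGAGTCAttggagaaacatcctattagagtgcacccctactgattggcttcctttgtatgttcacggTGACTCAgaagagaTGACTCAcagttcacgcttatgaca
BOC intron (AP-1) chr3:113241765-113241965: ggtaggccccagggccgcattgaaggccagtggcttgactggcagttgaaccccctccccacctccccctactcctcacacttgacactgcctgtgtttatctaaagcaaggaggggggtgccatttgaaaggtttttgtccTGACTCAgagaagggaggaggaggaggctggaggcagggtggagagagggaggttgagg
region near C15orf32 (AP-1) chr15:92510287-92510487: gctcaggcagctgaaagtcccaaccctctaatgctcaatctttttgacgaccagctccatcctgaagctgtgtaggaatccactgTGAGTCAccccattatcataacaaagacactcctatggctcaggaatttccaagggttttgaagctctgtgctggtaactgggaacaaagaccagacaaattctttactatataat
The ELMO1 intron, in a gene for a regulator of RAC and cell motility, had 56 fragments in WT, 38 in dKO and 45 in BAF53B (chr7:37031938-37032637), a log2 ratio of dKO over WT of −0.67 (−1.30 to −0.05), and held 3 AP-1 matches. The BOC intron, in a gene for a coreceptor of Sonic hedgehog, had 54, 38 and 62 fragments (−0.61, −1.25 to 0.01). The region near C15orf32, between genes and 116506 bp from the start of ST8SIA2, a polysialyltransferase of neural development, had 43, 28 and 52 fragments (−0.72). In the BOC and C15orf32 regions dKO was the lowest and BAF53B the highest of the lists.

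Of the 8 distal regions with the lowest ratio, 5 held an AP-1 match, beside 72 of all 499 distal regions. The 8 were picked by this ratio, and their dKO pileups were low, from 25 to 38 fragments, so nothing is read from that count. Among the 5 was a region in an intron of RAPGEF2 with 42, 29 and 36 fragments (−0.64, −1.38 to 0.08). The lowest of all lay in an intron of TENM2, a teneurin of synaptic adhesion, with 41 fragments in WT, 25 in dKO and 41 in BAF53B (−0.82, −1.60 to −0.07), and the next in an intron of NRXN3, a presynaptic adhesion protein, with 41, 26 and 34. The highest distal ratios of dKO over WT were of another make, with GC contents of 62.2 to 69.7% in 3 of 4. They lay near ODAD1 (34, 143 and 53 fragments), in CUEDC1 (35, 140 and 59), between genes on chromosome 9 (37, 146 and 65) and in TLE2, a Groucho corepressor (33, 130 and 43).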

How the data were processed

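ATAC-seq was performed on 6 samples in 3 groups of 2 replicates. Per the labels and the study's methods, the authors trimmed reads with cutadapt 1.13, aligned them to hg38 with Bowtie2 2.2.5, removed duplicates with SAMtools 1.3.1 and Picard 1.90 and called peaks with MACS2. The deposited files hold 1 peak list per group, pooled over its replicates. In the deposited lists the fold column gives the ratio between the pileup at the summit and the local background, and the deposited −log10 p-values and −log10 q-values are for the same pileup; every listed peak had a −log10 q of at least 5. Peak calling options and the Tn5 shift are not given in the sources used here, so the pileup may count extended reads and not whole fragments. Depth per sample is unknown, and the genome background of each list was taken as its depth.

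Whole pileups were solved from fold and −log10 p, which worked for 100% of peaks, and checked on simulated data. Where several partners overlapped, the one of highest fold was used. Genes, exons and starts came from GENCODE 44 and sequences from hg38, the build of the files. Motifs were matched on both strands. Shares have Wilson, differences of shares Newcombe, medians order-statistic and pileup ratios exact conditional binomial 95% intervals. Python 3.11.15, pandas 2.3.3, scipy 1.17.1, pysam 0.24.0, samtools 1.23.1 and blastn 2.17.0 were used. The members and gene lists were chosen with earlier results of these data known, and the classes by position and repeated sequence after the values were seen. Named genes were the 8 of highest WT pileup, the 6 highest and 6 lowest for dKO over WT and the 4 highest and 4 lowest for BAF53B over dKO among regions at or above the median mean height, the 6 highest regions over 3 kb from gene starts, and from each gene list all members for lists of up to 15 genes and otherwise the 3 highest. Some regions that this rule picks are not reported here. Sequence examples were limited to unique sequence after the values were seen.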

Additional observations from a re-analysis of the deposited data

How the results depend on the processing

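No paired analysis was possible because the 2 replicates of a group are merged in its peak list and no column names one; leaving a replicate out was not possible either. Of 163 recomputed values, 62 moved past their interval (counts, past 1.5 times) and 0 changed sign. A −log10 q of at least 10 gave 2577 common regions and 2608 genes, a promoter share of 79.9%, median log2 ratios of 0.75 (dKO over WT), 0.23 (BAF53B over WT) and −0.52 (BAF53B over dKO) and the order WT, BAF53B, dKO in 70.3%. Lists of equal length gave 79.4%, 0.84, 0.33, −0.50 and 79.4%. Reciprocal overlap of 50% gave 3803 regions, 3395 genes and 71.2%; a partner much wider than the WT peak fails it by construction. The promoter share was 69.9% within 1 kb, 80.9% with all genes, 89.5% with all transcript starts and 75.4% without repeated or mitochondrial sequence (the last 2 chosen after seeing the data). With the deposited fold the ratios were 0.46, 0.16 and −0.28 and the order held in 53.9%; with −log10 p they were 1.17, 0.47 and −0.68. Of the 77 motif shares recomputed 25 moved, 11 of them with the narrower window, which holds fewer bases. The cause of the other shifts was not tested. Without replicates, none of these values has a library error.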
